A study of Homo sapiens with 22 samples.

Results

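FOXA2 was mapped by ChIP-seq to 11886 regions in vehicle-treated NCI-H660 cells, and the regions described here are the 2944 of them that had no FOXA2 region at the same place in vehicle-treated PC3 cells and that did carry JUN. The members were chosen by 3 deposited region lists and an overlap of at least 1 bp: present in the NCI-H660 vehicle FOXA2 list, absent from the PC3 vehicle FOXA2 list, and present in the NCI-H660 JUN list made under the control siRNA siNC. For comparison, 6264 FOXA2 regions were also NCI-H660-only but carried no JUN (called the JUN-free NCI-H660-only regions), 1377 FOXA2 regions were shared with PC3 and carried JUN (the shared regions with JUN), and 14127 of the 18401 siNC JUN regions lay away from FOXA2. Of the shared regions with JUN, 28.2% lay in at least 17 of all 22 deposited lists.

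The study compared transcription factor binding and open chromatin in 3 prostate cancer cell lines and deposited 22 region lists with 871377 regions in all, 1 list per sample. NCI-H660, a neuroendocrine prostate cancer line, gave 6 lists: FOXA2 ChIP-seq in vehicle-treated cells and after 10 µM ORY-1001 for 4 h, JUN ChIP-seq after siNC and after siFOXA2 (siRNA against FOXA2), and H3K4me2 ChIP-seq and ATAC-seq in vehicle-treated cells. PC3, a line that lacks androgen receptor signalling, gave 11 lists: FOXA2 with vehicle, with ORY-1001 at the same dose and time and with the compound C12 (0.5 µM for 4 h), JUN and the JUN partner FOSL1 each under siNC and siFOXA2, H3K27ac, ATAC-seq, and another pair of FOXA2 ChIPs whose antibody the labels do not give. LNCaP, an androgen-dependent adenocarcinoma line, gave 5 lists: JUN under siNC and under siFOXA1, FOXA2 and JUN in cells with overexpressed FOXA2 (FOXA2OE), and JUN in a sample titled FOXA2K265R whose cell-line label also reads FOXA2OE. Each line was a single cultured line, and each condition had 1 list, apart from the further pair of PC3 FOXA2 ChIPs, which share 1 condition in the labels. No read counts were analysed here, so that the depth is unknown, differences between the conditions compared have no replicate check, and no test between conditions was made. Shares are given with 95% Wilson intervals, which cover counting error only.

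FOXA2 belongs to the forkhead family of pioneer factors, winged-helix proteins that bind their short motif on nucleosomal DNA and open chromatin for other factors during endoderm and neuroendocrine development. JUN is a basic leucine zipper protein that pairs with FOS-family or other JUN-family proteins to form AP-1, which binds the palindrome TGANTCA at enhancers. H3K4me2 marks active and poised enhancers and promoters, ATAC-seq marks open chromatin, and ORY-1001 inhibits LSD1 (KDM1A), a demethylase that acts on H3K4me2 and on other proteins.

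Most members did not carry a consensus motif of both factors near their centre, and those in which both lay within 30 bp of each other numbered 24. The 6 of these with the highest FOXA2 score are shown because they are where both factors have a recognisable sequence side by side. Each window is 81 bases of the hg19 plus strand around the motif pair, read 5′ to 3′, with the forkhead motif (TGTTTAC or TATTTAC) and the AP-1 motif (TGAGTCA or TGACTCA) in capitals.
MVK, intron, chr12:110026383-110026463: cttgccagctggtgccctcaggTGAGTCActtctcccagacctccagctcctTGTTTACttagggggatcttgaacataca
CACNB4, intron, chr2:152714273-152714353: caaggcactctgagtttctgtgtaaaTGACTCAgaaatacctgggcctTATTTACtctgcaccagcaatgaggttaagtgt
INSC, intergenic, chr11:15492809-15492889: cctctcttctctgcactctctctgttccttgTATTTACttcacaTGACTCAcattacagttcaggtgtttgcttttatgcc
CCR6, intron, chr6:167544658-167544738: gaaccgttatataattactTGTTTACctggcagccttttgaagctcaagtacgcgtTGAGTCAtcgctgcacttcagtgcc
ARHGAP5, intergenic, chr14:32508203-32508283: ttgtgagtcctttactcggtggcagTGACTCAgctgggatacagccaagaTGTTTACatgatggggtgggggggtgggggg
UBAP1, intergenic, chr9:34158511-34158591: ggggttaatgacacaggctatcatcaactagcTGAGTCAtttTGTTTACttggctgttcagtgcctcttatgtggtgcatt

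Each region is named after the gene with the nearest transcription start. The gap between the motifs was 23 bp at MVK, 15 bp at CACNB4, 6 bp at INSC, 30 bp at CCR6, 18 bp at ARHGAP5 and 3 bp at UBAP1, and the median gap over the 24 regions was 13.5 bp. The order and spacing thus differed from region to region. JUN was still called under siFOXA2 at MVK, INSC and CCR6 but not at CACNB4, ARHGAP5 and UBAP1, and FOXA2 was still called under ORY-1001 at all of these but ARHGAP5. Of the 24 regions, 11 still carried JUN under siFOXA2 and 17 still carried FOXA2 under ORY-1001, where 38.0% and 75.6% of all members did.

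A pair of further sequences, each 151 bases around the centre, shows members that ranked high for both factors, lay in no PC3 or LNCaP list and differed in the siFOXA2 list. A factor is called kept where its region was called again, under siFOXA2 for JUN and under ORY-1001 for FOXA2. The first, 134 kb from MEIS1 (a homeobox gene), kept both factors and has neither of these motifs in the window shown. It does hold a match, on the minus strand, to a looser forkhead motif described below. The second, 7.99 kb from BOK (a BCL2-family gene), kept FOXA2 only and has a forkhead motif in capitals.
MEIS1, intergenic, chr2:66528230-66528380: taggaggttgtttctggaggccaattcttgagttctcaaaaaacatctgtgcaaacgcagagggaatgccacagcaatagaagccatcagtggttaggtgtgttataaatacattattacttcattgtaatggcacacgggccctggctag
BOK, intergenic, chr2:242489900-242490050: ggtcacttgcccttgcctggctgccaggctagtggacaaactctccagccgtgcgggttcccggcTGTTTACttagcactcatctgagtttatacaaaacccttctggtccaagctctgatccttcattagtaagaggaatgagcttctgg

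The score in each list was read as 10 times the −log10 q value of the peak caller and used only to rank regions within a list, as a percentile in which 100 is the highest. Lists differ in length, so percentiles of different lists, such as JUN under siNC and under siFOXA2, do not measure a change in signal. Since the members were selected on the presence of FOXA2 and JUN, their scores in those lists are given as a description. Their FOXA2 scores ran from 13 to 2830 with a median of 154, at a median percentile of 55.9 in the FOXA2 list, against 42.9 for the JUN-free NCI-H660-only regions. Their JUN scores ran from 14 to 27170 with a median of 98, at a median percentile of 57.5, against 75.8 for the shared regions with JUN. The members were therefore not confined to the weakest or the strongest regions of either list. They were 302 bp wide at the median (209 to 980 bp), and their JUN regions 423 bp.

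At most members the FOXA2 and JUN regions lay on top of each other. The overlap had a median of 259 bp, the centres lay 81.5 bp apart at the median, 1697 members (57.6%) had centres within 100 bp, and 1111 (37.7%) lay wholly inside the JUN region. The 2944 members met 2935 distinct JUN regions, so that only 18 members shared theirs with another member. Near the threshold of the rule, 45 members overlapped JUN by under 50 bp and 13 by under 20 bp, the lowest by 1 bp, while 62 JUN-free NCI-H660-only regions lay within 100 bp of a JUN region, the nearest 1 bp away. On the PC3 side, 6 members lay within 100 bp of a PC3 vehicle FOXA2 region, the nearest at 14 bp, and the smallest overlap that left a JUN-carrying region out was 47 bp.

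In NCI-H660 the members were open and mostly carried H3K4me2. An ATAC region was present at 97.8% of the members (97.2 to 98.3) and at 90.4% of the JUN-free NCI-H660-only regions. Among the overlapped ATAC regions, the median percentile was 92.2 for the members and 74.6 for the JUN-free regions, so the members lay high in the ATAC list of the line. H3K4me2 was called at 77.4% of the members (75.8 to 78.9), at 53.1% of the JUN-free regions and at 83.7% of the shared regions with JUN. Its median percentile was 59.1 at the members and 47.1 at the JUN-free regions. Thus the members exceeded the JUN-free regions, mapped in the same libraries, on both marks by more than the counting intervals. ATAC and H3K4me2 regions are wider than FOXA2 regions, and where each had to cover 50% of the other the members' shares were 33.9% and 11.9%. All 6 NCI-H660 lists overlapped at 717 members (24.4%).

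Outside NCI-H660 most members were not called for any factor or mark. In PC3, 1874 members (63.7%) lay in none of the 11 lists, and 1765 (60%) lay in no PC3 and no LNCaP list, compared with 67.9% of the JUN-free regions. PC3 ATAC regions covered 27.5% of the members (25.9 to 29.1), 15.9% of the JUN-free regions and 91.6% of the shared regions with JUN. PC3 H3K27ac covered 13.6%, 7.55% and 78.7% of them in the same order. JUN itself was called in PC3 under siNC at 3.87% of the members and 72.7% of the shared regions, and FOSL1, the JUN partner profiled in PC3, at 1.60% of the members. Absence from the PC3 vehicle FOXA2 list did not mean absence from every PC3 FOXA2 list: the other pair of PC3 FOXA2 ChIPs, with 77822 and 62714 regions against 24038, overlapped 18.5% and 15% of the members, close to the 19.3% and 15.1% of the JUN-free regions. After ORY-1001 in PC3, 4.25% of the members had a FOXA2 region, and after C12 1.9%.

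In LNCaP the JUN list of the sample titled FOXA2K265R stood apart, with 9.78% of the members, against 3.53% for JUN in FOXA2OE cells, 3.23% for FOXA2 in FOXA2OE cells, 2.58% for JUN under siNC and 2.17% under siFOXA1. These lists held 47505, 23994, 2500, 2421 and 1964 regions, in the same order, and a longer list overlaps more of any set. Over all 22 lists a member lay in a median of 5 lists (range 2 to 20), and only 2 members lay in 17 or more. Of the shared regions with JUN, 388 (28.2%) lay in 17 or more, and 48.6% met the LNCaP JUN list under siNC. Comparisons with that class therefore include many places called in most lists.

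**Figure D1:**
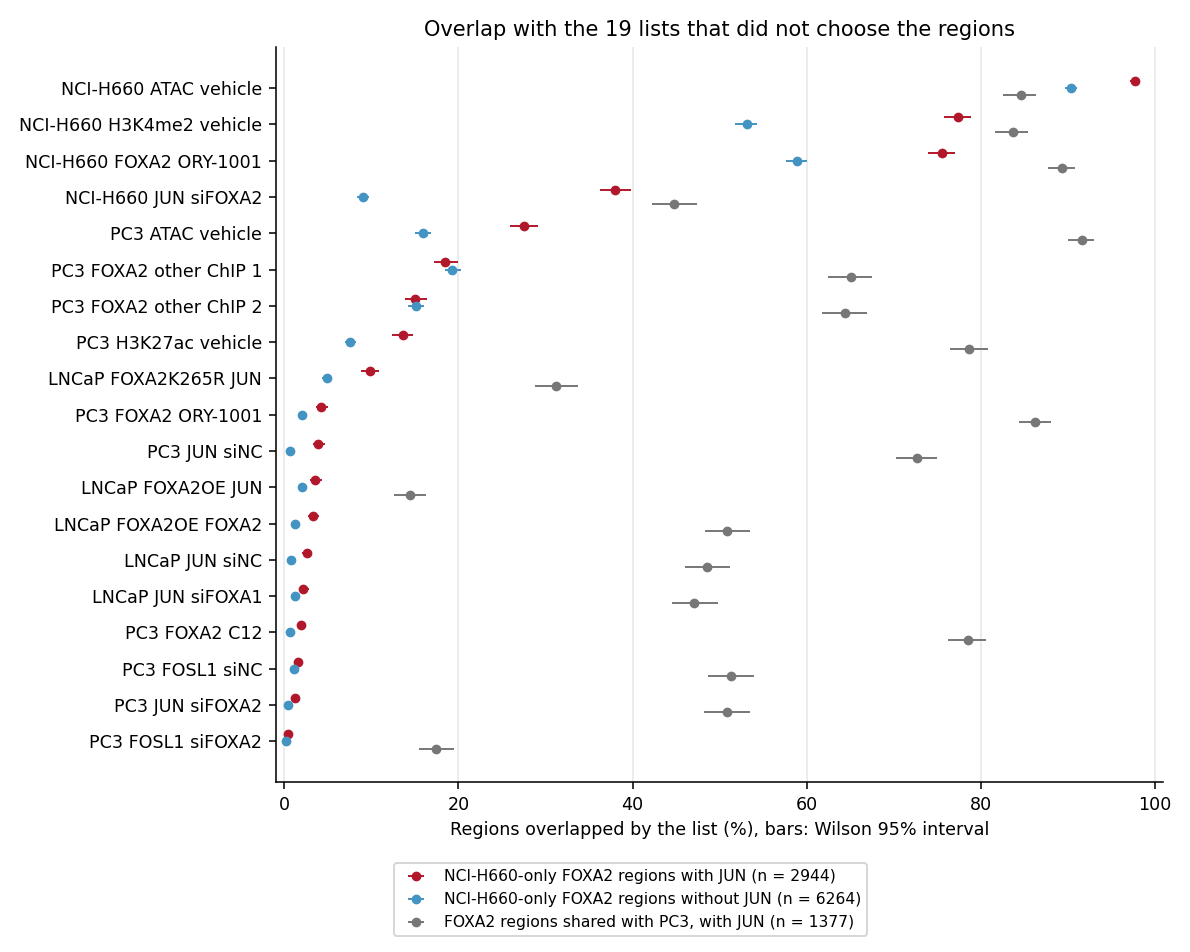
Share of regions (%, horizontal axis) overlapped by each of the 19 lists that did not choose the members, for the members (red), JUN-free NCI-H660-only regions (blue) and FOXA2 regions shared with PC3 that carry JUN (grey); points are shares and bars Wilson 95% intervals. The members sit at 97.8% for NCI-H660 ATAC and at 27.5% or less for every PC3 and LNCaP list, whereas the shared regions reach 91.6% for PC3 ATAC.

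JUN was called at 1119 of the 2944 members under siFOXA2, a share of 38.0% (36.3 to 39.8). Over the whole siNC list 48.0% of the regions were called again under siFOXA2. The rule used the siNC list, so this share is a description and nothing is read from its distance to the whole list. The siFOXA2 JUN list was also longer, with 59452 regions against 18401, and a region absent from it is one that was not called, which is not the same as one without JUN. The level of FOXA2 under siFOXA2 was not analysed here. The share fell to 19.9% where both regions of a pair had to overlap by at least 50%, and was 24.4% of the 1062 members left where only regions with a score of at least 100 were used in every factor list that has scores, the siFOXA2 JUN list included. Where JUN was called again, it lay at a median percentile of 88.5 in the siFOXA2 list, against 88.2 for all siNC JUN regions called again. Of the JUN-free NCI-H660-only regions, 565 (9.02%) had a JUN region under siFOXA2, at a median percentile of 63.6.

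The members in which JUN was called again differed in place and chromatin from the rest. At the 141 members within 1 kb of a transcription start the share was 55.3% (47.1 to 63.3), and at the others 37.1% (35.4 to 38.9). With H3K4me2 it was 42.5%, without it 22.7%. Members that were also open in PC3 had a share of 51.9% (48.5 to 55.3), and members closed there 32.7% (30.8 to 34.8). Over all siNC JUN regions the same splits gave 70.2% and 41.6% by transcription start, and 54.6% and 32.4% by H3K4me2. By PC3 ATAC they gave 59.7% and 36.1%. These differences were thus not particular to the members. When the members were ranked into 5 bins of equal size, the share climbed with the ATAC score from 26.9% in the lowest bin to 57.5% in the highest, and with the H3K4me2 score, among the 2278 members that carried the mark, from 27.4% to 68.2%. By JUN score it stood at 32.9%, 31.6%, 30.4% and 36.2% in the 4 lower bins and at 58.9% in the highest. Without the 199 members in a repeated sequence described below it climbed through all 5 bins, at 21.9%, 24.2%, 28.6%, 34.8% and 60.1%. Also without those 199, the share ran from 24.4% to 53.7% by ATAC score and from 25.7% to 59.1% by H3K4me2 score. By FOXA2 score the share over all members stayed between 32.3% and 42.8%. JUN regions without FOXA2, weighted to the members' deciles of JUN score, were called again in 52.0% of cases, or 43.7% away from promoters against 37.1% of the members there. The shared regions with JUN, weighted alike, gave 37.4%.

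FOXA2 was called at 2225 members under ORY-1001, 75.6% (74.0 to 77.1). The share over all vehicle FOXA2 regions was 68.4%, and as the rule used the vehicle list nothing is read from the difference. The lists were of like length, 11469 regions after ORY-1001 and 11886 with vehicle. By FOXA2 score the share ran from 37.2% in the lowest bin through 63.2%, 84.2% and 93.7% to 99.7% in the highest, so nearly all members with a strong vehicle FOXA2 region had one after ORY-1001. The JUN-free NCI-H660-only regions, binned by their own FOXA2 scores, climbed likewise from 20.7% to 95.2%. A region called again may still have lost signal, and the change in signal was not measured here. By JUN score it stayed between 71.6% and 79.9%. Weighted to the members' deciles of FOXA2 score, the JUN-free NCI-H660-only regions gave 67.3% and the shared regions with JUN 85.5%, on either side of the members. In contrast to JUN, FOXA2 was called again less often within 1 kb of a transcription start, at 56.0% (47.8 to 64.0), than elsewhere, at 76.6% (75 to 78.1). With a forkhead motif the share was 83.2% (81.0 to 85.2), and without one 70.4% (68.2 to 72.5). Over all vehicle FOXA2 regions the shares were 57.0% within 1 kb of a start and 69.0% elsewhere. With and without the forkhead motif they were 72.0% and 65.2%, so the directions were the same there.

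**Figure D2:**
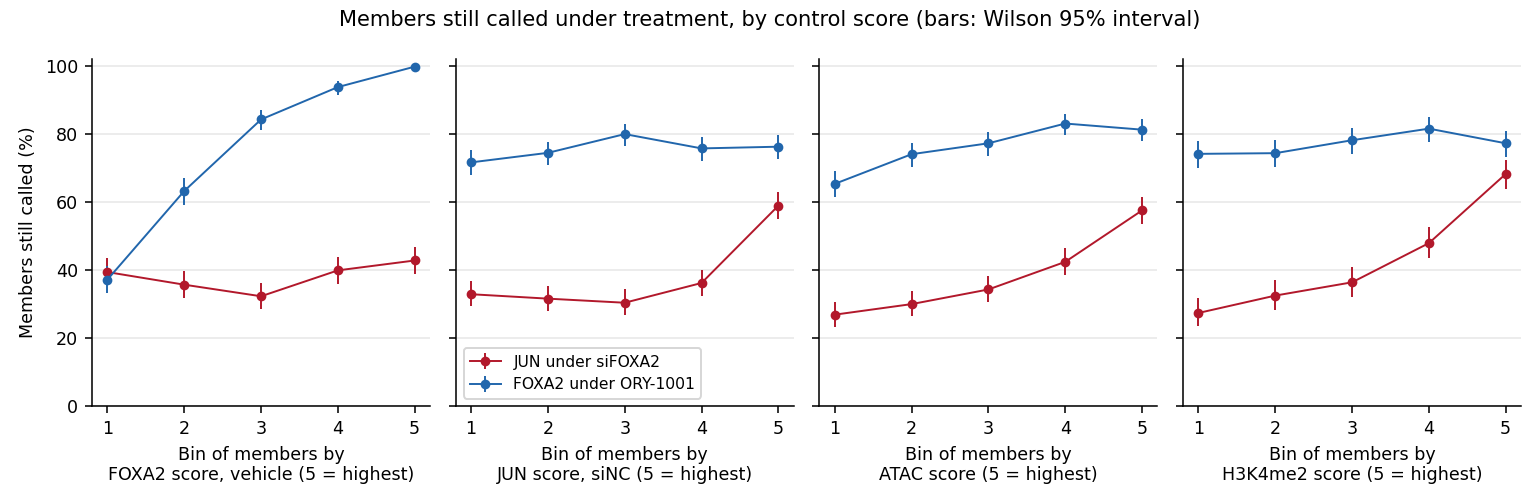
Share of members still called (%, vertical axis) in JUN under siFOXA2 (red) and in FOXA2 under ORY-1001 (blue), for 5 bins of equal size of the members ranked by their FOXA2, JUN, ATAC or H3K4me2 score in vehicle-treated or siNC cells (bin 5 is the highest); bars are Wilson 95% intervals. FOXA2 climbs from 37.2% to 99.7% with its own vehicle score, and JUN climbs from 27.4% to 68.2% with the H3K4me2 score. Without the 199 members in the repeated sequence, not drawn apart here, the JUN values were 25.7% and 59.1%.

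The 2 perturbations split the members into 4 classes. JUN was no longer called but FOXA2 was at 1401 members (47.6%), both were called again at 824 (28.0%), neither at 424 (14.4%), and JUN but not FOXA2 at 295 (10.0%). JUN was called again at 37.0% of the members that kept FOXA2 and at 41.0% of those that did not. The class with JUN but not FOXA2 had low FOXA2 scores (median percentile 22, against 71.7 where both were called again), and 15.9% of it lay within 1 kb of a transcription start, against 3.43% to 3.76% of the other 3 classes. H3K4me2 covered 87.5% of the members that kept both factors and 65.1% of those that kept neither.

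The strongest members of each class, by mean rank for FOXA2 and JUN, are given with the gene of the nearest transcription start, which could lie far away. The 5 that kept both were nearest to BHLHE22 (a neuronal helix-loop-helix gene, 313 kb away), MEIS1 (134 kb), ST6GAL2 (310 kb), RP11-685N3.1 (685 kb, in 11 lists) and SFTPA1. The last overlapped a UTR of SFTPA1, which encodes a surfactant protein of the lung. The 5 that kept FOXA2 only were nearest to HOXB1 (24.9 kb), BOK (7.99 kb), HACE1 (65.3 kb), CFHR4 (14.3 kb) and UQCRFS1 (1968 kb), the last in 14 of the 22 lists. The 5 that kept JUN only lay near LBX1 (a homeobox gene, 38.1 kb), FOXB1 (a forkhead gene, 99.5 kb), NENF, in a coding exon near CHPF and in an intron near MED16, a Mediator subunit gene. At the region near MED16 the JUN percentile was 99.6 under siNC and 99.9 under siFOXA2, with a FOXA2 percentile of 56.3. The JUN values are ranks in lists of unlike length and do not show a rise. The 5 that kept neither were nearest to KIAA1217 (75.5 kb), ARHGAP5 (36.9 kb), MOGAT1 (81.7 kb), CWH43 (153 kb, in 9 lists) and NAALADL2 (328 kb, in an intron). The regions at CWH43 and RP11-685N3.1 shared a repeated sequence, described at the end.

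The members held the forkhead motif less often than the JUN-free NCI-H660-only regions and the AP-1 motif more often. Either strand was searched, 100 bp to each side of the region centre, and the search was repeated in windows of equal size 2 kb away on both sides. TGTTTAC or TATTTAC was found in 40.6% of the members (38.9 to 42.4), 51.1% of the JUN-free regions and 6.76% of the flanking windows. TGACTCA or TGAGTCA was found in 7.81% (6.90 to 8.84), 3.42% and 2.89%. Both occurred in 71 members (2.41%), forkhead alone in 1125 (38.2%), AP-1 alone in 159 (5.40%) and neither in 1589 (54.0%). A looser forkhead motif (TGTTT or TATTT, then A or G, then C or T, which includes the stricter letters) was in 72.3% of the members, 80.3% of the JUN-free regions and 32.5% of the flanks.

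Some other short motifs are given for comparison. CAAGTG, a core bound by NKX2 homeodomain proteins, was in 22.4% of the members, 21.9% of the JUN-free regions and 12.7% of the flanks, and the E-box CAGATG in 16.3%, 14.6% and 13.3%. The CRE palindrome TGACGTCA, which JUN and ATF dimers bind, was in 13 members (0.442%), and CCAAT was in 24.9% of the members and 27.4% of the flanks. GGGCGG was in 6.88% of the members with JUN under siFOXA2 and 2.96% of those without, and the GATA motif TGATAA in 6.17% and 11.5%. These groups also differ in their share of a repeated sequence described below (16.8% and 0.603%), which was not taken out of these values. The members' windows were 46.0% G or C at the median, against 42.0% in the JUN-free regions, 41.0% in the flanks and 52.0% in the JUN regions without FOXA2, and the part of base composition in these motif shares was not tested.

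**Figure D3:**
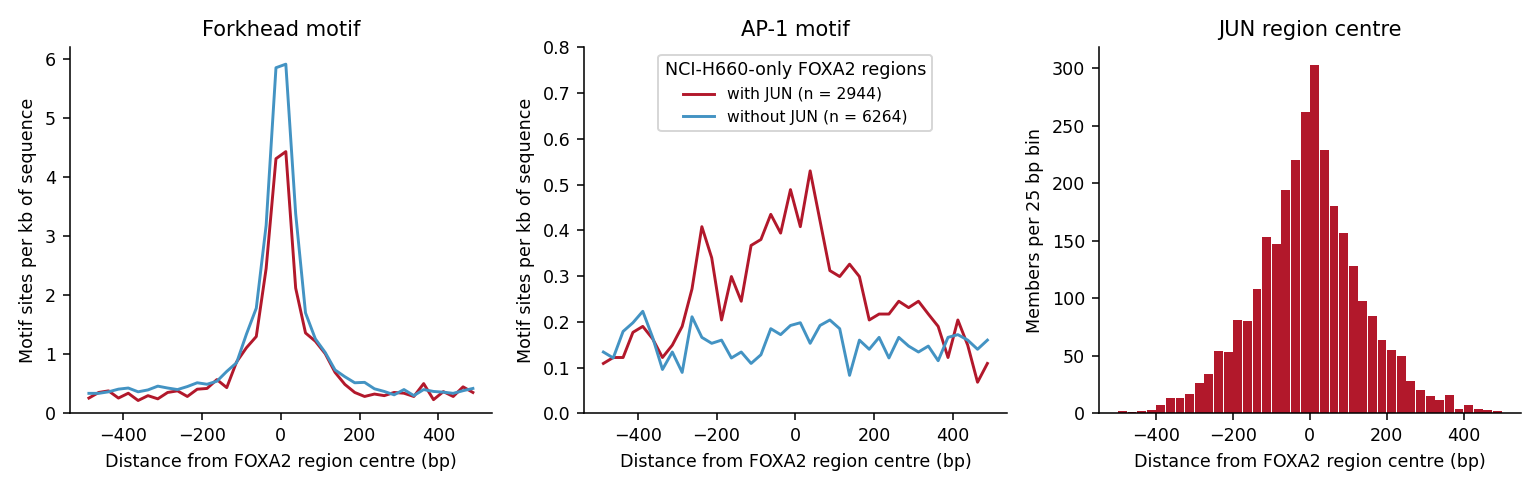
Forkhead sites (left) and AP-1 sites (middle) per kb of sequence in 25 bp bins by distance from the FOXA2 region centre (bp), for members (red) and JUN-free NCI-H660-only regions (blue), and the number of members by the distance of the JUN centre (right). Forkhead sites reach 4.43 per kb at the members' centre and are higher still in the JUN-free regions, and AP-1 sites are raised over a wide stretch around the members' centre, on a smaller vertical scale.

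One sequence recurred among the members. The letters of 199 members (6.76%) aligned over at least 100 bp with at least 80% identity to the member at chr1:42525266-42525490 (225 bp, intergenic, nearest gene GUCA2B), with a median identity of 86.6%, on 19 chromosomes and in both orientations (100 in that of the reference member). Of these, 137 were intergenic, 61 intronic and 1 in a UTR. A word of 21 bases, shown because 133 of the 199 (66.8%) and none of the other members held it without a mismatch, carries a forkhead motif in capitals, here read on the minus strand of hg19 at an intergenic place near OR9K2.
repeated word, chr12:55480710-55480730: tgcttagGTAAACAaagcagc

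The members in the repeated sequence differed from the other 2745 in most of the lists compared. JUN was called again under siFOXA2 at 188 of 199, 94.5% (90.4 to 96.9), against 33.9% of the other members. Where each region of a pair had to cover 50% of the other, the shares were 35.1% of 77 and 19.3% of 1898. By the main rule they made up 16.8% of the members with JUN under siFOXA2 and 0.603% of those without. FOXA2 was called again under ORY-1001 at 83.9% and 75%. H3K4me2 covered 99.0% and 75.8%, PC3 ATAC 57.3% and 25.3%, and PC3 H3K27ac 31.2% and 12.3%. JUN in the LNCaP sample titled FOXA2K265R covered 62.3% and 5.97%, and JUN in FOXA2OE cells 27.6% and 1.79%. Of the 288 members in the FOXA2K265R list, 124 thus belonged to the repeated sequence. They carried the forkhead motif in 93.0% of cases against 36.8%, and the AP-1 motif in 1 of 199 (0.503%) against 8.34%. Their median JUN percentile was lower under siNC, 36.7 against 59.4, and about equal under siFOXA2, 88.3 against 88.6.

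Outside the repeated sequence the motif comparison changed direction. Over all members, those with JUN under siFOXA2 held the forkhead motif in 44.1% of cases and those without in 38.5%. Without the 199, the shares were 34.4% (31.4 to 37.5) and 38.1% (35.9 to 40.4), with intervals that overlap. The AP-1 motif was in 10.7% (8.91 to 12.9) of the other members with JUN under siFOXA2 and in 7.11% (6.02 to 8.39) of those without.

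Within the repeat, JUN and FOXA2 were offset. Along the strand that matched the reference member, the JUN centre lay upstream of the FOXA2 centre in 153 of 199 (76.9%), and the median offset over the 199 was -104 bp. Downstream on the same strand, the longest reading run free of stop codons within 8000 bases had a median of 558 codons and reached 500 codons or more at 130 (65.3%). Upstream the run was read outward from the centre, on the opposite strand, and its median was 130 codons. The sides were thus not compared on the same strand. An internal promoter ahead of long reading frames is the known layout of LINE-1 retrotransposons, but no repeat annotation was used and the identity of the repeat was not tested.

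Across the genome the reference member's sequence had 7262 copies, and FOXA2 and JUN were called at a minority of them. Vehicle FOXA2 covered 629 copies (8.66%), FOXA2 under ORY-1001 599, JUN under siNC 414 (5.70%) and JUN under siFOXA2 2590 (35.7%). The copies were thus 2.25% of the siNC JUN list and 4.36% of the siFOXA2 list. Among the siFOXA2 list's top 18401 regions, a number equal to the siNC list, 957 (5.20%) met a copy. ATAC regions covered 40% of the copies, H3K4me2 33.5%, and JUN in the sample titled FOXA2K265R 32.6%. Of the JUN-free NCI-H660-only regions, 310 aligned to the same sequence, and 215 of these (69.4%) had JUN under siFOXA2, which was 38.1% of the 565 such regions. How reads that fit several copies were placed is not given in the sources used here, and their part in these calls was not tested.

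**Figure D4:**
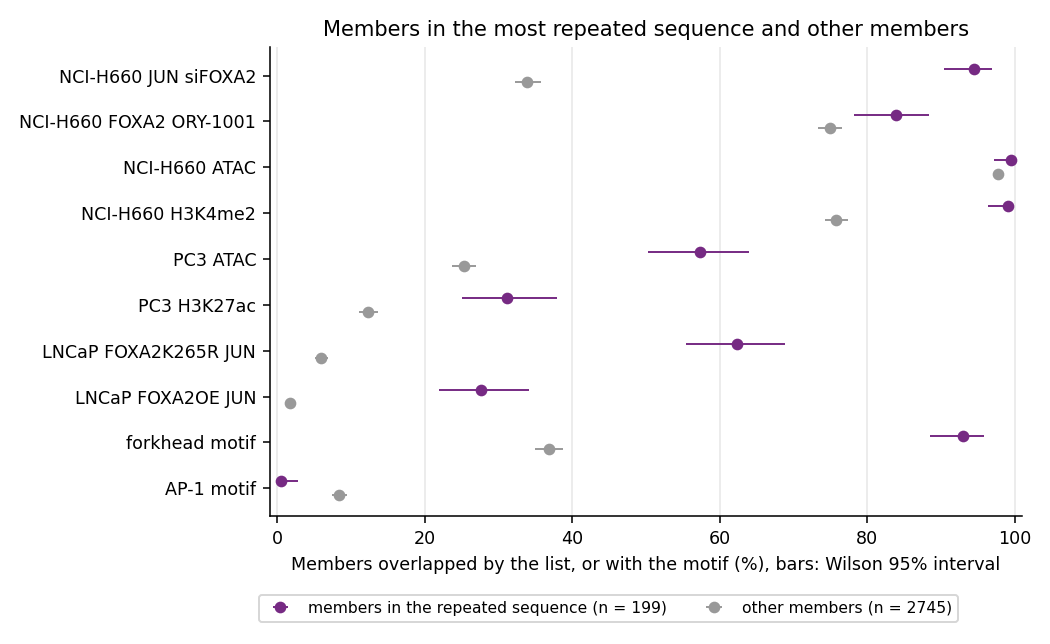
Share (%, horizontal axis) of the 199 members in the repeated sequence (purple) and of the other 2745 members (grey) that overlapped each list or held each motif; bars are Wilson 95% intervals. JUN under siFOXA2 stands at 94.5% against 33.9%, and the forkhead motif at 93.0% against 36.8%.

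Most members lay far from a transcription start, and nearly as many lay inside genes as between them. Place was set by any overlap of the whole region, with coding exons counted first, then UTRs, then introns. By this rule 1533 (52.1%) were intergenic, 1254 (42.6%) in introns, 81 in coding exons and 76 in UTRs. Only 141 (4.79%) lay within 1 kb of a protein-coding transcription start, against 4.20% of the JUN-free regions and 27.4% of the JUN regions without FOXA2. The median distance to a start was 56.1 kb, the same as for the JUN-free regions, while JUN regions without FOXA2 lay at 21.6 kb. In position the members therefore resembled other FOXA2 regions of the line rather than its other JUN regions.

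By chromosome the members were uneven. Chromosome 8 held 313 (10.6%, 9.57 to 11.8), against 6.98% of the JUN-free regions, 5.86% of the ATAC regions and 12.5% of the siNC JUN regions. Chromosome 1 held 12.4%, against 10.1% of the ATAC regions. The excess on chromosome 8 was thus larger in the siNC JUN list as a whole. The copy number of the line was not analysed here.

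**Figure D5:**
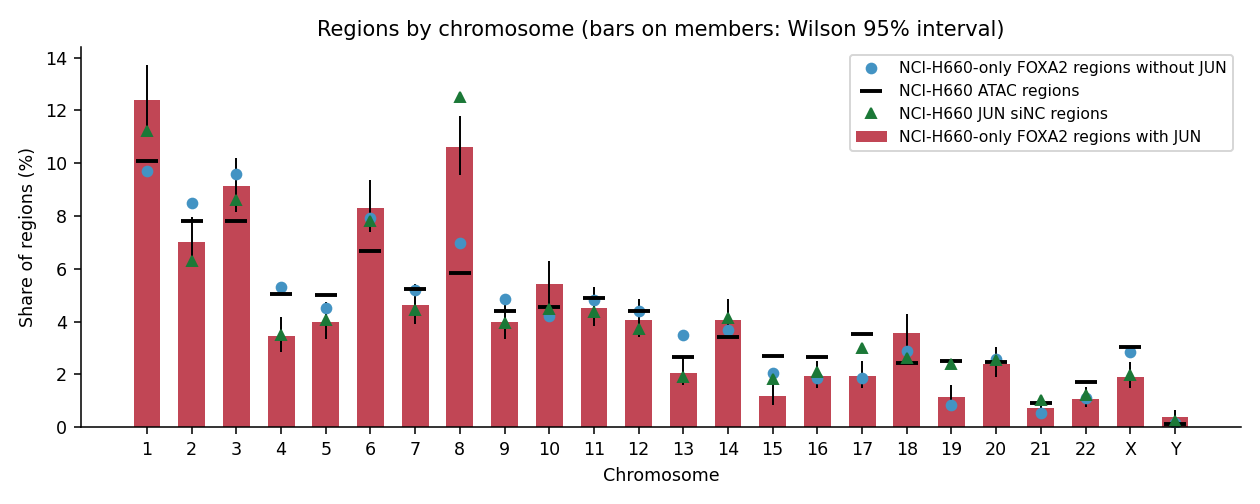
Share (%, vertical axis) of the 2944 members on each chromosome (red bars, with Wilson 95% intervals), with the shares of the JUN-free NCI-H660-only regions (blue points), ATAC regions (black dashes) and siNC JUN regions (green triangles) of NCI-H660. On chromosome 8 the members stand at 10.6% and the ATAC regions at 5.86%.

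Members were spread thinly over genes. The nearest transcription starts belonged to 1987 genes, of which 1434 had 1 member and 49 had 5 or more. USP9Y had 10, all with FOXA2 under ORY-1001 and at a median distance of 956 kb. CELF4, an RNA-binding protein gene of neurons, had 9, of which 1 had JUN under siFOXA2, and RALYL had 9, of which 7 did and 4 lay in the repeated sequence. MYC (8 members, 5 with JUN under siFOXA2), LRMDA (8 and 5) and AUTS2, a neurodevelopmental gene (8 and 1), followed, before 7 genes with 7 members each: NCALD, NRXN3, TRAPPC9, SIPA1L2, LINC00999, TRPS1 and NAALADL2. Of the genes with 7 members, JUN was called under siFOXA2 at 1 each for NRXN3 and NAALADL2 and at 6 for TRPS1, 4 of whose members lay in the repeated sequence. Median distances were also long for CELF4 (731 kb), RALYL (236 kb) and MYC (342 kb, with 2 of its 8 members in the repeated sequence). They were 85.5 kb for LRMDA and 73.6 kb for AUTS2. Among the genes with 7 members they ran from 13.5 kb (SIPA1L2) to 855 kb (TRPS1).

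The gene lists were read against all protein-coding genes, of which 2211 of 19821 (11.2%) overlapped a member or had one within 50 kb of their start. Such shares depend on gene length, so the median length of each list stands beside its count. Neuronal ion channel and synapse genes had a member at 19 of 50 (38.0%), with a median length of 449 kb against 27 kb for all genes, and axon guidance genes at 14 of 48 (29.2%, 212 kb). Neuroendocrine transcription factor genes, with a median length of 9.59 kb, had one at 10 of 49 (20.4%, 11.5 to 33.6), and neuroendocrine secretory and surface genes at 8 of 46 (17.4%, 9.09 to 30.7, 16.9 kb). JUN-free NCI-H660-only regions, which are more numerous, were near more genes of all 4 lists, at 62.0%, 52.1%, 38.8% and 32.6%, against 21.1% of all genes, so higher shares at these lists were also seen without JUN. Of the remaining lists, AP-1 subunits stood at 4 of 20, with a median length of 10.9 kb. The FOXA family and LSD1 complex stood at 1 of 17 (58 kb). Luminal and androgen receptor genes stood at 4 of 27 (41.6 kb), and basal and mesenchymal genes at 4 of 32 (50.7 kb). JUN-free NCI-H660-only regions were near the same share of AP-1 subunits as the members. For the other lists, in the same order, they were near 23.5%, 29.6% and 31.2% of the genes.

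Among neuroendocrine transcription factor genes, the highest FOXA2 score was at ST18, a zinc-finger gene of the MYT1 family. This member, in an intron at chr8:53167404-53167767, had a FOXA2 percentile of 99.2 and a JUN percentile of 70.8, and it kept both factors, at 90.9 for JUN under siFOXA2 and 98.3 for FOXA2 under ORY-1001. ST18 had 3 members, all with FOXA2 under ORY-1001 and 1 with JUN under siFOXA2. The single member at TBX2 (a T-box repressor) also kept both. POU2F3 (a POU-domain factor of tuft cells) had 2 members, of which the one with the higher FOXA2 score kept both and the other kept FOXA2 only. Those at MYT1, in a UTR, and NHLH1, a neuronal helix-loop-helix factor, kept FOXA2 only, and the member 20.5 kb from NKX2-2, a homeobox gene of neural and endocrine cells, kept JUN only. Every outcome but the loss of both occurred among these 6 genes, which were taken in order of FOXA2 score. FOXA2 was called again more often at high scores, so nothing is read from the missing outcome. Over the 10 genes of this list with a member, 11 of 14 members kept FOXA2 and 5 kept JUN, where 75.6% and 38.0% of all members did.

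Of the secretory and surface genes, PTPRN2, which encodes a protein of dense-core vesicles, had the member with the highest FOXA2 score. It lay in an intron, with a JUN percentile of 97.9 under siNC and 99.7 under siFOXA2, and it lay at the top of the ATAC and H3K4me2 lists by percentile. ADCYAP1 (the neuropeptide PACAP), CEACAM5 (a surface glycoprotein) and PCSK2 (a prohormone convertase) likewise had a member that kept both factors. At SYT1, the calcium sensor of vesicle release, and DDC, the aromatic amino acid decarboxylase, FOXA2 was kept and JUN was not.

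The members at axon guidance and synapse genes are read against the 75.6% of all members that kept FOXA2 and the 38.0% that kept JUN. The 18 members at axon guidance genes kept FOXA2 in 17 and JUN in 6, and the 50 at ion channel and synapse genes kept FOXA2 in 41 and JUN in 13. The netrin receptor gene DCC had 3 members, all with FOXA2 under ORY-1001 and none with JUN under siFOXA2. PLXNC1 and NRP2 (semaphorin receptors), CNTN4 (an adhesion protein) and NTN4 (a netrin) each had a single member of the same kind, while the best member at PLXNA2 kept both. At NRXN3, a presynaptic adhesion gene, 5 of 7 members kept FOXA2 and 1 kept JUN, and the strongest had a FOXA2 percentile of 98.7. KCNB2, a voltage-gated potassium channel gene, and RIMS2, of the presynaptic active zone, kept JUN at 4 of 6 and 3 of 4 members and FOXA2 at 3 of 6 and 4 of 4. The best members at CACNA1D (a calcium channel), DLGAP1 (a postsynaptic scaffold) and GRIN2B (an NMDA receptor subunit) kept FOXA2 only.

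Of the 20 genes of AP-1 subunits, 4 had a member, against 11.2% of all genes. The interval of that share (8.07% to 41.6%) takes in the share over all genes. JUN had 1, an intergenic region 19.4 kb from its start that kept FOXA2 and not JUN and that also lay in PC3 ATAC and H3K27ac regions. FOS had 1, also 19.4 kb away, with a JUN percentile of 95.4 under siNC and 98.9 under siFOXA2 but no FOXA2 under ORY-1001, and it lay in 11 of the 22 lists. ATF7 and MAF had 1 each that kept FOXA2 only. In the list of the FOXA family and LSD1 complex the single gene was GFI1B, a repressor that recruits LSD1, with a FOXA2 percentile of 1.16, near the bottom of the list.

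Luminal and basal genes had single members too. NDRG1, an androgen- and hypoxia-responsive gene, had a member 1.23 kb from its start with a FOXA2 percentile of 99.0 that kept both factors, and ELF3, an epithelial ETS factor gene, had one that kept both and lay in 10 lists. The member at ZBTB16 kept JUN only, and that at FKBP5, a co-chaperone gene induced by the androgen receptor, kept neither. Of the basal and mesenchymal genes, TP63 had a member 0.759 kb from a start, and CDH2, which encodes N-cadherin, had one in a UTR, both with FOXA2 under ORY-1001 and without JUN under siFOXA2. VIM kept both, and ZEB1 kept FOXA2 only.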

How the data were processed

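ChIP-seq and ATAC-seq region lists of 22 samples (3 human prostate cancer cell lines) were used. Per the submitters' processing notes, reads were handled with FastQC 0.11.9, BWA 0.7.17-r1188 (hg19), SAMtools 1.9 and MACS2 2.1.4; control libraries, pooling of replicates and MACS2 settings are not given in the sources used here. The authors deposited a score for each region in 20 of the lists, read here as 10 times −log10 q (lowest 13) and used for ranks within a list only; 2 LNCaP lists hold none.

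Regions overlapping by at least 1 bp were counted as shared. Positions and sequence came from GRCh37 with GENCODE 44 (19821 protein-coding genes). Shares were given with Wilson 95% intervals; depth is unknown, and with 1 list for each condition compared no test was made. Members were aligned to each other with BLAST 2.17.0. Python 3.11.15, numpy 2.4.6, pandas 2.3.3, pysam 0.24.0, samtools 1.23.1 and matplotlib 3.10.9 were used, and the scripts were tested on simulated data. Regions named singly were the 5 best per class by mean FOXA2 and JUN rank, the member with the highest FOXA2 score at up to 6 genes of each gene list, the genes nearest to most members (10, extended over ties) and the motif pairs. The printed windows were taken in order from these, outside chromosome 8 and UTRs. Members and lists were chosen with earlier results of these data known. The repeated sequence was noticed in the data. A further motif searched is not reported here.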

Additional observations from a re-analysis of the deposited data

How the results depend on the processing

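No value had a test, so each was judged by whether it moved outside its counting interval. Over 14 alternatives, 27 of 58 values stayed within it. A score of at least 100 in every scored factor list left 1062 members, with JUN called again at 24.4%, FOXA2 at 82.5%, ATAC at 98.6%, promoters at 3.30%, forkhead at 43.1% and AP-1 at 12.1%. A score of at least 30 gave 36.1% for JUN called again and 75.1% for H3K4me2. An overlap of at least 50% of both regions gave 19.9% for JUN called again, 33.9% for ATAC, 11.9% for H3K4me2, 3.59% for promoters, 36.2% for forkhead and 9.42% for AP-1; ATAC and H3K4me2 regions are wider than FOXA2 regions. Leaving out regions of the other untreated PC3 FOXA2 lists gave 36.2% for JUN, 3.90% for promoters, 38.4% for forkhead and 6.53% for AP-1. Equal numbers of top regions gave 29.1% for JUN and 77.3% for FOXA2. Promoters of 250 bp and 5 kb gave 3.19% and 10.1%. A motif window of 250 bp gave 50.1% for forkhead and 15.4% for AP-1, the whole region 48.4% and 11.2%, and the looser forkhead motif 72.3%. Without the 199 members in the repeated sequence, a setting chosen after seeing the data, JUN was called again at 33.9%, H3K4me2 covered 75.8% and forkhead 36.8%.

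JUN called again in the repeated sequence and in the other members, under settings also added after seeing the data, was 35.1% of 77 and 19.3% of 1898 at 50% overlap, 82.1% of 28 and 22.8% at a score of 100, and 76.9% and 25.6% with equal numbers of top regions. The causes were not tested. No paired analysis was possible because the conditions compared had 1 list each and the labels share no replicate numbers between them.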

Other observations

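Smaller sets of members also shared sequence, by the same alignment rule. In 17 members aligned to chr1:95163382-95163759, all 17 held a forkhead motif, 12 held CAAGTG and 3 the AP-1 motif. All 17 kept FOXA2 under ORY-1001, 4 kept JUN under siFOXA2, and 1 was open in PC3, while 12 JUN-free NCI-H660-only regions aligned to the same sequence. Another 21 members aligned to chr4:49141471-49141821, with no forkhead and no AP-1 motif, and 19 of them kept FOXA2 and 8 JUN. A further set of 21, aligned to chr22:24928447-24928936, kept FOXA2 in 13 and JUN in 9, and 65 JUN-free NCI-H660-only regions aligned to it. These sets were chosen after their sequences were seen, and their values are descriptions without a test.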
